A study of Rattus norvegicus with 30 samples.

Results

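The genes described here are the 150 whose level varied least across 30 libraries of rat median nerve, out of 32545 genes listed in the count table. Each gene's level was taken as log2(CPM+1), where CPM is its count divided by the library's total count and multiplied by 1000000. The 5622 genes with a mean level of at least 5 over all libraries, about 31 CPM, were ranked by the standard deviation (SD) of that level, and the 150 lowest were taken. The selection rule sets 2 further genes aside, and 0 of them ranked among the 150. The SD over all 30 libraries thus chose the genes, so their small spread, their small differences between groups and every comparison below that uses these libraries are descriptions and not tests.

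Poly(A) RNA was sequenced from wild-type adult female rats. The delayed repair groups held tissue regenerated in a 10 mm chitosan tube that bridged an 8 mm gap in the cut nerve, with the tube placed 3 months after the injury, and taken 7 days (n = 5), 14 days (n = 4) or 21 days (n = 3) after the repair. The immediate repair groups received the tube when the nerve was cut, and tissue was taken after 7 days (n = 4), 14 days (n = 4) or 21 days (n = 5). Untreated healthy median nerve served as the control (n = 5). The labels do not say that each replicate came from its own animal, and name no batch. Total counts per library ranged from 11958242 to 17334752. Delayed day 7 replicate 5, the library with the largest total, stands apart for these genes. Immediate day 7 replicate 4 and immediate day 21 replicate 5 do so on some of the measures below. Some results are also given without delayed day 7 replicate 5.

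A cut nerve is rebuilt by a changing mix of cells. Axons beyond the cut degenerate, Schwann cells leave their myelin-forming state, macrophages and fibroblasts enter the gap, and vessels grow in ahead of the axons. In bulk RNA a gene can keep its level through such a change of cell mix only if the incoming and outgoing cells carry it at similar amounts, or if differences cancel. Genes of this kind, often called housekeeping genes, serve as references in quantitative PCR and in scaling of sequencing libraries. In bulk tissue, fewer cells of a type and less RNA per cell cannot be told apart. The count table gives Ensembl gene IDs without symbols, and 0 of the IDs matched the gene and promoter tables of the rat reference GRCr8. The lists of common reference genes, ribosomal, proteasome, splicing and other families, and of cell type markers therefore gave no values. No function is assigned to any of the 150 genes, no sequence is shown, and the tissue label was not checked against markers.

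The SD of the 150 genes ran from 0.0937 to 0.159 log2 units with a median of 0.143, against a median of 0.377 over the 5622 ranked genes. The last 5 genes taken had SDs of 0.158 to 0.1591, and the next 5 in rank, left out, 0.1594 to 0.1601, so no gap separates the chosen genes from those that follow. On the CPM scale the median coefficient of variation was 9.96%, and 11.7% at most. Between its lowest and its highest library a chosen gene differed by 1.29-fold to 1.86-fold, with a median of 1.504-fold. Over the ranked genes that median was 2.81-fold, and over the 150 genes next in rank 1.61-fold.

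The typical level of the 150 genes was close to that of all ranked genes, which the rule limits to a mean level of at least 5. The mean CPM of the 150 genes had a median of 71.6, with a range of 31.2 to 639, against 72.9 over all ranked genes. CPM is not scaled by gene length, so these values do not order the genes by transcripts per cell. Of the 2674 ranked genes with a mean level of 5 to 6, 58 were chosen (2.17%). In the band of 6 to 7, 64 of 1763 were chosen (3.63%), and in that of 7 to 8, 22 of 732 (3.01%). Between 8 and 9, 5 of 297 were chosen (1.68%), and of the 156 genes at 9 and above a single gene was (0.641%). Together the 150 genes took between 1.31% and 1.54% of the counts of a library, with a median of 1.41%.

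**Figure D1:**
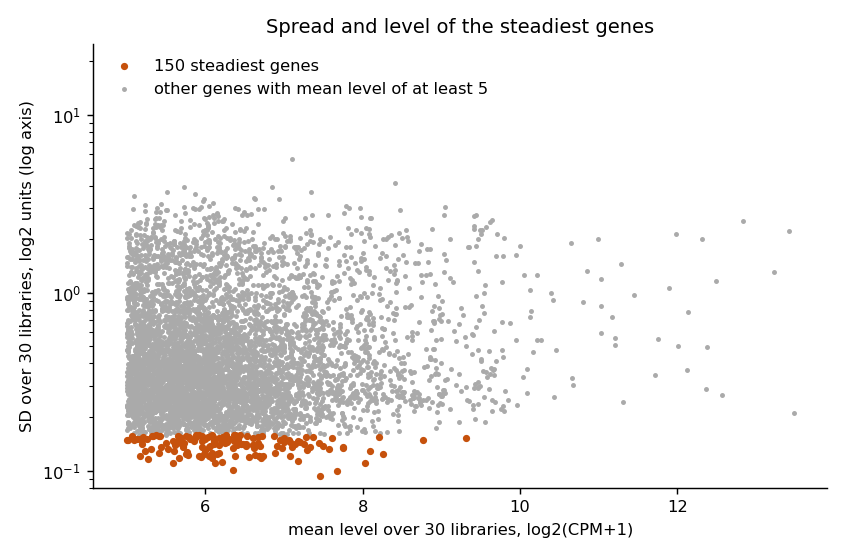
Each point is a gene with a mean level of at least 5, placed by its mean level in log2(CPM+1) and by its SD over the 30 libraries in log2 units on a log axis. The 150 steadiest genes, in orange, lie below 0.16 along the lower edge of the cloud, up to a mean level of 9.31, and thin out above a mean level of 8.

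The depth behind these values is given by the counting error. At the mean counts of these genes, which ran from 455 to 9297 with a median of 1043, Poisson counting would give a median SD of 0.0445 log2 units. The observed SD was 1.92 to 10.1 times that of counting, with a median of 3.23 times. Over all ranked genes the median ratio was 8.83. These ratios use the SD that chose the genes and describe the set only.

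Most of the variance of these genes lay between replicates and not between groups. A median of 29.7% of the variance of a chosen gene was between the 7 groups, with a range of 4.62% to 68.4%, against a median of 64.7% for all ranked genes. Within a group the pooled SD had a median of 0.131 log2 units for the chosen genes and 0.244 for the ranked genes. Delayed day 7 was the most variable group, with a median SD of 0.149. That group holds replicate 5, and its SD without that library was not computed. Days 14 and 21 of delayed repair gave 0.0946 and 0.0986. Immediate repair gave 0.121, 0.110 and 0.125 at days 7, 14 and 21, and control nerve 0.10. Over all ranked genes both day 7 groups were the most variable, at 0.301 in delayed and 0.268 in immediate repair, and control nerve the least, at 0.147.

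The gene with the lowest SD, ENSRNOG00000019152, shows how steady the set could be. It measured 159, 174, 177, 157 and 176 CPM in the delayed day 7 libraries. The delayed day 14 libraries gave 175, 182, 186 and 183 CPM, and the delayed day 21 libraries 164, 163 and 169 CPM. After immediate repair it measured 180, 173, 168 and 185 CPM at day 7.

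Later after immediate repair its values were 176, 190, 181 and 189 CPM at day 14, and 169, 163, 197, 202 and 178 CPM at day 21. Control nerve gave 156, 166, 170, 164 and 167 CPM. The 30 values lay within 1.30-fold of each other, with the lowest in control and the highest at day 21 of immediate repair. Day 14 libraries of both repairs lay above every control library, while delayed day 21 libraries lay within the control range. Its SD was 0.0937 whether libraries were scaled by their total counts or by trimmed mean of M values (TMM) factors, which assume that most genes do not differ between libraries.

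The second lowest, ENSRNOG00000016596, averaged 217 ± 17.6 CPM at day 7 of delayed repair, 199 ± 12.9 CPM at day 14 and 208 ± 15.7 CPM at day 21 (SD, n = 5, 4 and 3). After immediate repair it averaged 207 ± 11.1, 200.1 ± 11.7 and 201 ± 15.5 CPM at days 7, 14 and 21 (SD, n = 4, 4 and 5), and 197 ± 11.6 CPM in control nerve (SD, n = 5). Its 30 values ran from 180 to 237 CPM, and every repair group overlapped the control libraries. Its SD of 0.0988 became 0.136 when libraries were scaled by TMM factors.

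How far the set holds beyond the libraries that chose it was examined by leaving libraries out of the choice. When each library was left out in turn and the 150 steadiest genes were chosen from the other 29, between 126 and 147 of the 150 were chosen again, and 115 were chosen in all 30 rankings. In the library left out, the genes so chosen differed from their mean in the other 29 by a median of 0.0697 to 0.212 log2 units. For all ranked genes that median lay between 0.166 and 0.487. The number of the 150 chosen genes within 1.25-fold of their mean was 105 in delayed day 7 replicate 5, 116 in immediate day 7 replicate 4 and 129 in delayed day 7 replicate 1, and at least 135 in each other library.

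**Figure D2:**
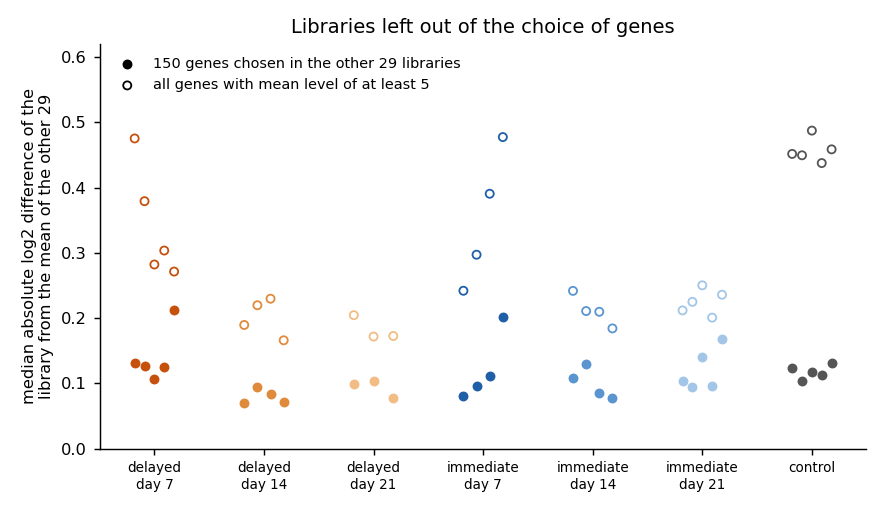
For each library, by group, filled points give the median absolute log2 difference of the library from the mean of the other 29 for the 150 genes chosen without it, and open points the same over all genes with a mean level of at least 5. Filled points lie between 0.0697 and 0.212, below the open point of the same library throughout.

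Whole groups were also left out of the choice. The 150 genes steadiest in the 18 immediate repair and control libraries were all within 1.25-fold of that mean in the average of the 12 delayed libraries, as were 72.4% of the genes ranked there. In the reverse choice, from the 17 delayed repair and control libraries, all 150 genes were within 1.25-fold in the average of the 13 immediate libraries, as were 78.1% of ranked genes. The 150 genes steadiest in the 25 repair libraries alone included 76 of the genes described here. Of these 150, 87 (58.0%) were within 1.25-fold in the average of the 5 control libraries, against 34.5% of ranked genes, and the largest difference was 1.23 log2 units. Without the 9 day 7 libraries, 75 of the genes described here were chosen again, and 130 of the 150 chosen (86.7%) were within 1.25-fold in the day 7 average, against 44.7%. Genes chosen from the repair libraries alone thus included some whose level in healthy nerve was different. These shares were not compared by a test, and the libraries left out numbered 12, 13, 5 and 9.

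Delayed and immediate repair were compared at each day by a count test fitted over all 16015 genes with enough counts, all 150 included. A gene was called where the p of edgeR's quasi-likelihood test, adjusted by Benjamini-Hochberg over those genes, lay under 0.05. At day 7, 0 of the 150 genes were called, where 0.712% of all tested genes were called. At day 14, 0 were called against 0% of all tested genes, and at day 21, 0 against 0.05%. Before adjustment, 1, 0 and 3 of the 150 genes had an edgeR p under 0.05 at days 7, 14 and 21. DESeq2 called 0 of the 150 at each day, where it called 2.13%, 0.05% and 0.362% of all tested genes. With library totals in place of fitted scaling factors, edgeR also called 0 at each day, where it called 0.656%, 0% and 0% of all tested genes. Since the rule chose genes of small spread in the same libraries, nothing is read from these counts.

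The fitted differences between the repairs were small in size. At days 7, 14 and 21 the median absolute log2 difference of the 150 genes, delayed over immediate, was 0.0502, 0.0518 and 0.0595, against 0.103, 0.0881 and 0.132 over the ranked genes and 0.175, 0.138 and 0.201 over all tested genes. The largest absolute difference of any of them was 0.224, 0.194 and 0.235 on these days. With a median standard error of 0.0949, 0.10 and 0.103 log2 units, the 95% interval of all 150 genes stayed within 1.5-fold in either direction on each day. It stayed within 1.25-fold for 129, 126 and 104 genes, which was not counted over the ranked genes. Among the 5622 ranked genes, 66.5%, 67.5% and 58.4% had an interval within 1.5-fold.

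Against control nerve the repairs shared the same 5 control libraries, so their values stand side by side and are not compared. At day 7 of delayed repair 24 of the 150 genes were called with edgeR, where 64.4% of all tested genes were called. Of these, 17 were higher and 7 lower, where 31.5% and 32.9% of all tested genes were. At day 14 of delayed repair 31 were called against 51.9% of all tested genes, 0 higher and 31 lower, against 26.2% and 25.7%. At day 21 of delayed repair 19 were called against 44.3%, 0 higher and 19 lower, against 23.1% and 21.2%. Immediate repair gave 27 calls at day 7 against 65.2% of all tested genes, 18 higher and 9 lower, against 30.2% and 35%. It gave 28 at day 14 against 51.4%, 1 higher and 27 lower, against 26.1% and 25.4%. At day 21 it gave 32 against 47.7%, 0 higher and 32 lower, against 24.8% and 22.8%. A difference of any kind among the 7 groups was called for 47 of the 150 genes (31.3%), where 73.2% of all tested genes were called. DESeq2 called 69 of the 150 for any difference, where it called 76.9% of all tested genes. The rule used these libraries, and nothing is read from the counts.

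The fold changes behind these calls were small: none of the 150 genes differed from control by more than 0.477 log2 units in any comparison, and the 95% interval lay within 1.5-fold for 147 to 150 of them. Among the ranked genes 23.8% to 34.6% had such an interval. Without delayed day 14 replicate 4 the delayed day 14 count was 20, where 47.8% of all tested genes were called. Without immediate day 14 replicate 1 the immediate day 14 count was 15, against 47.9%. The delayed day 21 count was 10, 11 or 10 without delayed day 21 replicate 1, 2 or 3, against 37.1%, 38.7% and 35.1% of all tested genes, and 12 without control replicate 1, against 41.3%. Without delayed day 7 replicate 5, 24 genes were called at day 7 of delayed repair, 19 higher and 5 lower. Of the 15997 genes then tested 65.9% were called, 4991 higher and 5555 lower.

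The split of the calls into higher and lower at days 14 and 21 depended on how the libraries were scaled. With library totals in place of TMM factors, mostly lower became mostly higher at day 14 of both repairs and day 21 of immediate repair. At day 21 of delayed repair lower calls were the more numerous under both. The counts above use TMM factors, whereas the rule scaled each library by its total count. Relative log expression factors gave 26 and 17 lower and 0 higher calls at days 14 and 21 of delayed repair. At these days of immediate repair they gave 26 and 36 lower, with 1 and 0 higher. DESeq2 gave 36 and 24 lower and 0 higher after delayed repair on these days. After immediate repair it gave 33 and 43 lower, with 1 and 0 higher. Of all 16015 tested genes, 3684 to 4394 were called higher and 3436 to 4289 lower in these comparisons. With total counts as library sizes, edgeR called 13 genes at day 14 of delayed repair, where 52.1% of all tested genes were called. Of these 9 were higher and 4 lower, where 31% and 21.2% of all tested genes were. At day 21 of delayed repair 6 were called against 43.6%, 2 higher and 4 lower, against 25.4% and 18.2%. For immediate repair it called 19 at day 14 against 51.9%, 16 higher and 3 lower, against 30.9% and 20.9%. At day 21 it called 25 against 49.4%, 24 higher and 1 lower, against 32.7% and 16.7%, where TMM factors gave 32 calls that were all lower. Between these 2 scalings the day 7 calls moved little. After delayed repair 22 were called against 63.8%, 15 higher and 7 lower, against 31.1% and 32.7%, and after immediate repair 25 against 64.5%, 18 higher and 7 lower, against 29.9% and 34.6%. The number called for any difference among the 7 groups was 20, where 73.3% of all tested genes were called, in place of 47.

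**Figure D3:**
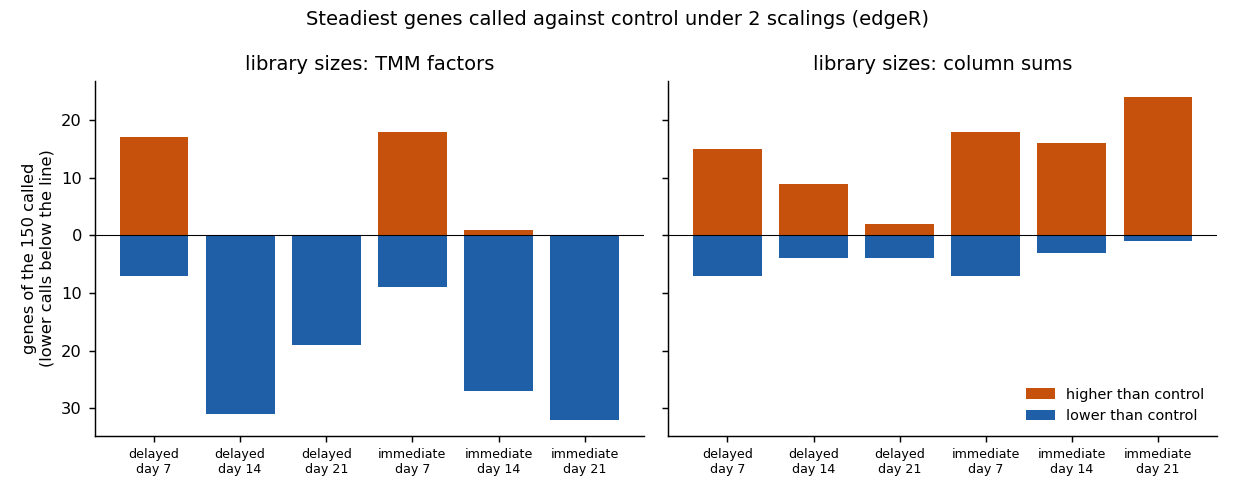
Bars give how many of the 150 genes edgeR called higher (above the line) or lower (below the line) than control in each repair group, with TMM factors on the left and library totals (column sums) on the right. At day 21 of immediate repair the bar is 32 lower under TMM and 24 higher with 1 lower under library totals, while the day 7 bars are alike in both panels.

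The medians over all 150 genes changed sign between the scalings in the same 3 groups, and stayed below 0 at day 21 of delayed repair. Scaled by library totals, the median difference from control of the group means was 0.0027, 0.0087 and -0.031 log2 units at days 7, 14 and 21 of delayed repair, and 0.021, 0.022 and 0.069 on these days of immediate repair. Scaled by TMM it was 0.0063, -0.131 and -0.111 after delayed repair, and 0.021, -0.115 and -0.124 after immediate repair. The scaling moved the wider set of 5622 ranked genes likewise: its median difference from control was 0.199 by totals and 0.0591 by TMM at day 14 of delayed repair, and 0.227 and 0.0362 at day 21 of immediate repair. By totals the chosen genes thus stood near control while the median ranked gene stood above it. By TMM the median ranked gene stood near control and the chosen genes stood below it, at days 14 and 21 of both repairs.

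The median of the 150 genes shifted by a small amount in single libraries, and not all genes moved with it. The number above their own mean ran from 31 in control replicate 5 to 131 in immediate day 21 replicate 5. It was 70 in immediate day 7 replicate 4. As a median over the 150 genes, scaled by library totals, the level differed from each gene's own mean by -0.021, 0.052, 0.026, -0.021 and -0.114 log2 units in the delayed day 7 libraries. The immediate day 21 libraries gave -0.023, 0.069, 0.0996, 0.025 and 0.140. The delayed day 21 libraries gave -0.040, -0.062 and -0.049, all 3 below every immediate day 21 library. Control libraries gave 0.036, 0.018, -0.025, -0.051 and -0.079, and the day 14 libraries of both repairs and the immediate day 7 libraries lay between -0.062 and 0.069. Delayed day 7 replicate 5 was the lowest library for 33 of the 150 genes and immediate day 21 replicate 5 the highest for 27.

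Scaled by TMM, the shifts sorted the groups differently. The mean of the library medians was 0.065 ± 0.072 log2 units at day 7 of delayed repair (SD, n = 5), -0.066 ± 0.016 at day 14 (n = 4) and -0.055 ± 0.038 at day 21 (n = 3). It was 0.067 ± 0.042 (n = 4), -0.056 ± 0.034 (n = 4) and -0.054 ± 0.023 (n = 5) at days 7, 14 and 21 of immediate repair, and 0.057 ± 0.035 in control nerve (n = 5). All 16 libraries of days 14 and 21 lay below 0, from -0.090 to -0.014, and the lowest control library lay at -0.0015. Of the day 7 libraries, delayed day 7 replicate 5 lay within that range, at -0.022, and the other 8 lay above 0. TMM factors ran from 0.876 to 1.14, and the geometric mean of the 150 genes relative to library totals from 0.935 to 1.10. The part that the scaling factors have in the calls at days 14 and 21 is given by the sets of counts above, and which scaling is nearer to the RNA content of the tissue was not tested.

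**Figure D4:**
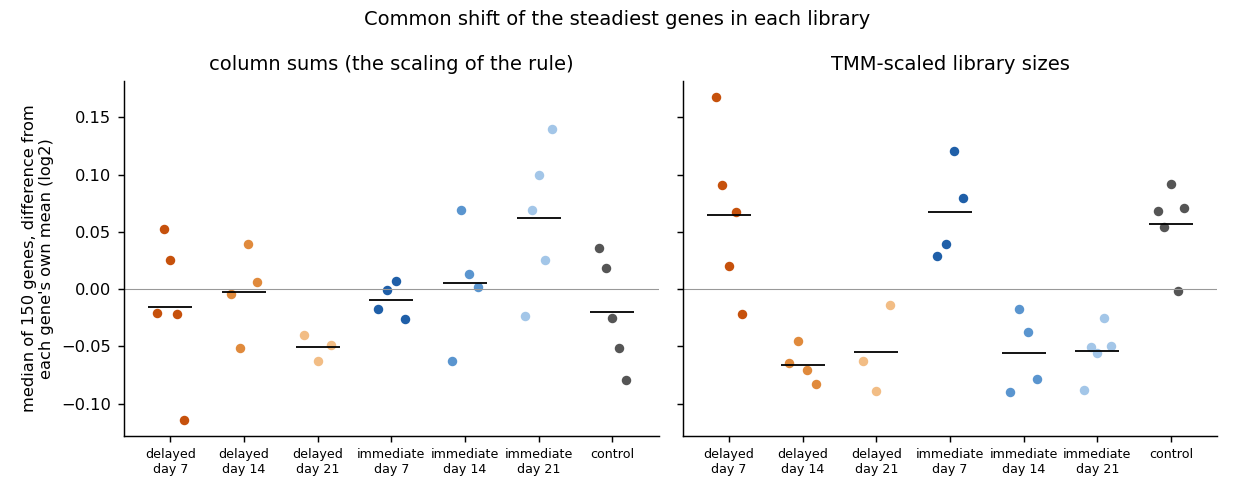
Points are libraries, by group, and bars their means; the height is the median over the 150 genes of the log2 difference from each gene's own mean over 30 libraries, scaled by library totals (column sums) on the left and by TMM on the right. On the left the groups overlap widely, apart from delayed day 21 below immediate day 21; on the right the libraries of days 14 and 21 lie below 0, at -0.090 to -0.014.

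With TMM factors 73 of the 150 genes (48.7%) were called in at least 1 of the 6 comparisons with control. The other 77 (51.3%) were called in none, against 15.3% of the 5622 ranked genes. Genes called under both scalings were not counted, and single genes are described here. ENSRNOG00000020412 was the only one of the 150 whose 25 repair libraries all lay above its 5 control libraries, where 31.9% of the 5622 ranked genes had no overlap between repair and control. It measured 170, 208, 201, 201 and 170 CPM at day 7 of delayed repair and 200, 199, 187 and 189 CPM at day 7 of immediate repair, against 159, 152, 148, 158 and 150 CPM in control nerve. Both day 7 groups lay wholly above control. The lowest repair library was delayed day 21 replicate 1 at 161 CPM, just above the highest control library. Its edgeR log2 difference from control was 0.31 (SE 0.066) at day 7 of delayed repair and 0.34 (SE 0.070) at day 7 of immediate repair with TMM factors, and 0.31 and 0.34 with library totals. At day 21 of immediate repair it was 0.12 (SE 0.066) by TMM and 0.31 (SE 0.072) by totals, and only the second was called. The day 7 calls of this gene held under each alternative run, with log2 differences of 0.29 to 0.37 in delayed and 0.32 to 0.40 in immediate repair.

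ENSRNOG00000003392 had the largest mean day 7 difference of the genes called higher at day 7 in both repairs. It measured 109, 113, 110.4, 111 and 109 CPM at day 7 of delayed repair, all above the control values of 92.4, 78.3, 91.5, 85.02 and 81.4 CPM. At day 7 of immediate repair it measured 129, 111, 109 and 84.3 CPM, so that replicate 4 lay within the control range. The edgeR log2 difference from control was 0.38 (SE 0.083) at day 7 of delayed repair and 0.33 (SE 0.088) at day 7 of immediate repair. Under the alternatives run it was 0.33 to 0.43 and 0.25 to 0.43 and stayed called. Later groups averaged 102.7 ± 5.26 and 98.8 ± 7.15 CPM at days 14 and 21 of delayed repair (SD, n = 4 and 3), and 102.8 ± 5.27 and 102.8 ± 0.972 CPM on these days of immediate repair (SD, n = 4 and 5), against 85.7 ± 6.20 CPM in control nerve (SD, n = 5).

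In the other direction, ENSRNOG00000018403 and ENSRNOG00000051498 were called lower than control in each of the 6 comparisons with TMM factors. ENSRNOG00000018403 measured 30.5, 29.5 and 29.9 CPM at day 21 of delayed repair, below the control values of 40.4, 39.7, 36.4, 38.2 and 33.6 CPM. At day 21 of immediate repair it measured 33.8, 40.1, 38.1, 33.3 and 41.3 CPM, which overlapped control. The edgeR log2 difference from control with TMM factors was -0.41 (SE 0.090) at day 21 of delayed repair and -0.21 (SE 0.077) at day 21 of immediate repair. With library totals it was -0.33 (SE 0.10), still called, and -0.013 (SE 0.087), not called. The calls at day 14 were also lost with library totals, at -0.15 (edgeR adjusted p = 0.194) after delayed and -0.18 (edgeR adjusted p = 0.11) after immediate repair, as was the call at day 7 of immediate repair, at -0.20 (edgeR adjusted p = 0.0626). With no filter on low counts the calls at day 7 of delayed repair and at days 7 and 21 of immediate repair were lost, with edgeR adjusted p of 0.0612, 0.242 and 0.147. Relative log expression factors ended the call at day 7 of immediate repair (edgeR adjusted p = 0.0572). Of its 6 calls with TMM factors, those at days 7, 14 and 21 of delayed repair and at day 14 of immediate repair held without any single library. The call at day 7 of immediate repair was lost without control replicate 1, 2, 3 or 4 or immediate day 7 replicate 1, 2 or 4, with edgeR adjusted p up to 0.13. The call at day 21 of immediate repair was lost without control replicate 1 or 2 or immediate day 21 replicate 1 or 4, with edgeR adjusted p up to 0.0719.

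ENSRNOG00000051498 averaged 81.5 ± 10.6, 82.4 ± 3.48 and 83.1 ± 2.98 CPM at days 7, 14 and 21 of delayed repair (SD, n = 5, 4 and 3). It averaged 78.8 ± 5.52, 80.8 ± 2.89 and 90.4 ± 11.1 CPM on these days of immediate repair (SD, n = 4, 4 and 5), and 94.4 ± 9.65 CPM in control nerve (SD, n = 5). Its edgeR log2 differences with TMM factors ran from -0.200 at day 7 of delayed repair to -0.36 at day 14 of immediate repair. With library totals the calls were lost at days 14 and 21 of both repairs, and the difference at day 21 of immediate repair was -0.064 (SE 0.093). No filter on low counts ended its calls at days 7 and 21 of both repairs, with edgeR adjusted p of 0.211 and 0.11 after delayed and 0.108 and 0.0801 after immediate repair. Relative log expression factors ended the call at day 7 of delayed repair (edgeR adjusted p = 0.0543). With TMM factors its calls at day 14 of both repairs held without any single library. Its call at day 7 of delayed repair was lost without control replicate 1, 2 or 3 or delayed day 7 replicate 3, 4 or 5, with edgeR adjusted p up to 0.153. At day 21 of delayed repair it was lost without control replicate 1, 2 or 3 or any of the 3 delayed day 21 libraries, with edgeR adjusted p up to 0.0978. For immediate repair the day 7 call was lost without control replicate 1 or immediate day 7 replicate 4, with edgeR adjusted p up to 0.054, and the day 21 call without control replicate 1 or immediate day 21 replicate 1, with edgeR adjusted p up to 0.0631.

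**Figure D5:**
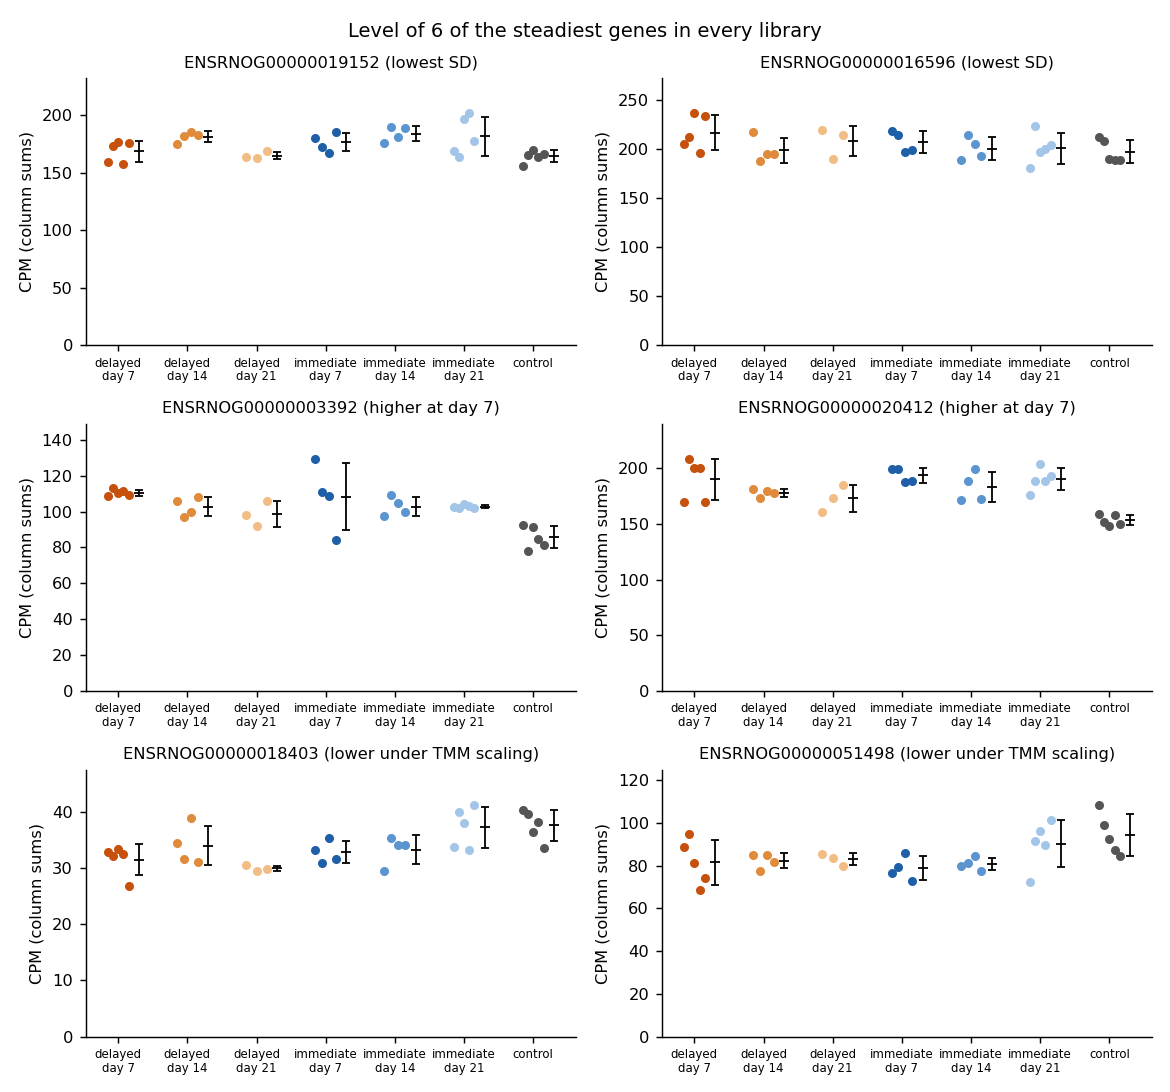
CPM, scaled by library totals (column sums), of 6 of the 150 steadiest genes in every library by group, with the group mean and SD beside the points. The top row holds the pair of genes with the lowest SD, the middle row the pair higher at day 7 than the control libraries, apart from replicate 4 of immediate day 7 in ENSRNOG00000003392, and the bottom row the pair called lower than control with TMM factors.

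Counted over the 150 genes by total-scaled levels, repair and control libraries failed to overlap in 9, 19 and 19 genes at days 7, 14 and 21 of delayed repair, where 52.9%, 61.3% and 59.5% of the ranked genes did so. For immediate repair the counts were 16, 22 and 17 genes, where 59.7%, 56.3% and 50.9% of the ranked genes did so. Between the repairs the libraries failed to overlap in 0 genes at day 7 and 4 at day 14, where 0.16% and 1.35% of ranked genes did so. At day 21 there were 14 such genes (9.33%), where 6.81% of ranked genes did so. All 14 were lower in delayed repair, and the direction among the ranked genes was not counted. The median shift of the whole set by totals, at -0.062 to -0.040 in the delayed and -0.023 to 0.140 in the immediate day 21 libraries, moved with these 14 genes, and its part in them was not tested. With TMM factors the median edgeR log2 difference of the 150 genes at day 21, delayed over immediate, was 0.0027.

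Scaling also decided which genes counted as steadiest. Ranked by TMM-scaled levels, 75 of the 150 genes were again among the 150 lowest, and 121 among the 300 lowest, with the last member at rank 740. Ranked with relative log expression factors, 71 were. There were 68 genes in the 150 lowest under totals, TMM and relative log expression factors alike. The median SD of the 150 genes was 0.151 under TMM, against 0.138 for the 150 genes that TMM scaling would choose. Across the 11175 pairs of the 150 genes, the median Pearson correlation over the 30 libraries was 0.128 by totals and 0.225 by TMM. The pairs share libraries, depth and scaling. Over pairs of ranked genes these medians were 0.049 and 0.0189. By totals 0.224% of pairs of the 150 genes exceeded 0.7 in size, against 14.6% of pairs of ranked genes.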

How the data were processed

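The deposited table holds raw counts per Ensembl rat gene ID for 30 libraries, made by the authors, 1 column per library. The tools named in the submitters' processing notes, without their roles, are DESeq2 1.38.3, featureCounts 1.5.0-p3 and HISAT2 2.0.5, and the genome build is not given in the sources used here. Per the labels' protocols, poly(T) capture from 400 ng of RNA (integrity number above 6) gave libraries that do not mark strand, so overlapping and antisense genes, and reads shared with near-identical copies, are uncertain. Columns were matched to samples by library name. None of the 51 pairs of replicates agreed within sampling noise (chi-square divided by its degrees of freedom at least 15.7). Since separate animals are not stated, p-values measure the spread between samples, which may be technical.

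The count test used edgeR 4.0.16 under R 4.3.3 (filterByExpr with its minimum count of 10, TMM, robust quasi-likelihood fit of 7 groups, adjustment over 16015 genes), and standard errors came from the test statistic. The test was tried on simulated data for immediate repair at day 21 against control (15698 genes). It called 31 of 100 genes changed 1.5-fold and 74 of 100 changed 2-fold, with 5 false calls. Only 100 genes were changed at each fold there, while in the data 47.7% of all tested genes were called in that comparison. The genes chosen by the rule were not scored apart, so these shares do not give the power for them. The members and lists were chosen with earlier results of these data known. The rule for named genes relied on symbols, and was reduced to the pair with the lowest SD, the pair with the largest mean rise called at day 7 in both repairs, and the genes called lower in all 6 comparisons with control; that reduction was made after the values were seen. Alternatives were DESeq2 1.42.0, which gave no adjusted p for 188 genes in the test of any difference, other factors, no filter, a replicate block, other forms of the rule, and leaving out each library. Library totals in edgeR, and leaving out delayed day 7 replicate 5 from comparisons that do not hold it, were added after seeing the data.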

Additional observations from a re-analysis of the deposited data

Results flagged for a closer look

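In ENSRNOG00000018403, delayed day 7 replicate 5 measured 26.8 CPM, set apart from the other 4 libraries of its group, the nearest of which measured 32.2 CPM. The gap was 0.813 of the group's range. Without that library the edgeR log2 difference of delayed day 7 from control was -0.20 (SE 0.078) in place of -0.24 (SE 0.077), and the gene stayed called. A total of 48 groups of values were examined in this way, and chance sets apart about 5% of groups.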

How the results depend on the processing

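Of the 150 genes, the number chosen again was 148 with a pseudocount of 0.5 and 133 with a mean level of at least 4. It was 92 with a mean level of at least 6, 75 with TMM, 71 with relative log expression factors, 81 by median absolute deviation and 73 by the spread of the 7 group means. It was 76, 102, 104 and 75 without the control, delayed, immediate and day 7 libraries, and 126 to 147 without any single library. For calls against control, no filter on low counts gave 19 and 4 at days 14 and 21 of delayed repair and 15 and 10 at these days of immediate repair, where 34.1%, 28.1%, 33.8% and 31% of the 24297 genes then tested were called. Of these calls 1 was higher, at day 14 of immediate repair. Among all tested genes 3775 to 4395 were higher and 3054 to 3938 lower there. At day 7 it gave 27 calls after delayed repair, 26 higher and 1 lower, where 5531 and 5257 of all tested genes were. After immediate repair it gave 23 at day 7, 23 higher and 0 lower, where 5224 and 5554 were. Library totals gave 13 and 6 in delayed repair and 20 for any difference among the 7 groups; the cause was not tested. Leaving out each library of the groups compared gave 18 to 25, 20 to 31 and 10 to 19 calls at days 7, 14 and 21 of delayed repair. In those fits 61.5% to 65.9%, 46.7% to 49.5% and 35.1% to 42.1% of all tested genes were called. At these days of immediate repair the counts were 19 to 28, 15 to 29 and 23 to 33. There 61.7% to 64.7%, 47.0% to 48.9% and 43.5% to 46.2% of all tested genes were called. Without immediate day 7 replicate 3, its day 7 calls were 13 higher and 13 lower, where 4594 and 5270 of all tested genes were. Without replicate 4 they were 11 higher and 8 lower, where 4661 and 5326 were. For any difference the counts were 39 to 52, against 70.1% to 74.6%. The comparisons between the repairs gave 0 calls under each alternative run, where 0% to 2.25% of all tested genes were called. With the replicate number as a block the counts were 23, 31 and 18 for delayed repair, where 64.0%, 50.6% and 42.7% of all tested genes were called. For immediate repair they were 25, 30 and 32, against 63.3%, 49.9% and 47.7%. Between the repairs the count was 0 at each day, against 0% of all tested genes. For any difference it was 46, against 71.0%. The block thus moved no count by over 1.5 times. Among the named genes, the block ended the call of ENSRNOG00000051498 at day 7 of delayed repair (edgeR adjusted p = 0.0522). The numbers were not taken as pairing: of 81 same-numbered pairs, 18 had deviations correlated above 0.1, with a median of 0.0075. Counting gives a median SD of 0.0445 log2 units for these genes, and the observed SD was a median of 3.23 times that of counting. How far depth limits the smallest shifts was not tested.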
